A study of Rattus norvegicus with 18 samples.

Results

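Ccn1, Ccn2 and Ccn3 encode secreted proteins of the CCN family, and Srf encodes serum response factor, a transcription factor. Their messenger RNAs were followed on 18 Affymetrix arrays of hippocampal neurons. The genes were chosen by name, with measured responses to potassium chloride (KCl) in the control arm already known, from all probe sets whose annotated gene symbol was 1 of the 4. Each probe set combines several short oligonucleotides into 1 signal. The 4 genes of 14218 on the array were read by 6 probe sets, 1 each for Ccn1, Ccn2 and Ccn3 and 3 for Srf. All neurons were rat cells grown in dissociated culture for 10 days, and lentivirus was added on day 3. In the control arm it carried control shRNAs, and in the RNAi arm it carried shRNAs against MEF2A and MEF2D. On day 10 every culture received for 1 h the NMDA receptor blocker AP5 and the sodium channel blocker TTX. KCl at 55 mM, which depolarizes the membrane and opens calcium channels, was then present for 0, 1 or 6 h, so the 0 h groups also carried virus and both blockers. Each arm and time had 3 arrays. The promoter driving the shRNAs, their targets in the control arm and the share of cells transduced are not given in the sources used here.

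CCN proteins are matricellular: they are laid down in the extracellular matrix, where they bind integrins and heparan sulphate proteoglycans and modulate growth factors rather than build the matrix itself. Ccn1 (Cyr61) and Ccn2 (connective tissue growth factor) are known as rapidly induced genes that respond to serum, stretch and TGF-beta, while Ccn3 (Nov) often opposes them in growth and fibrosis. SRF binds CArG boxes and works with the ternary complex factors of the ELK family or with the actin-regulated MRTF coactivators, and in neurons it takes part in activity-dependent transcription. SRF and the MEF2 proteins belong to the same MADS-box family.

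Median signals of 240 to 248 put the arrays on 1 scale, and replicates within a group had correlations of 0.993 to 0.998. Values are linear signals unless a log2 difference is named. The 4 probe sets of Mef2a lay at 26.5% to 67.8% of control in the RNAi arm and were called lower at every time. Of the Mef2d probe sets, 1 lay at 67.5% to 74.7% and was called lower at every time, while the other lay at 90.8% to 100% and was not called. Neuron markers matched the label, with all 10 above the 40th percentile on every array. Their summed signal was 47383 to 53593 over control arrays and 40777 to 48783 over RNAi arrays. With RNAi, 2 of the 10 were called lower and 0 higher at each time. Lower calls covered 6.19%, 9.12% and 8.55% of all genes at 0, 1 and 6 h. Nefm was called lower each time (log2 -0.97, -1.09 and -1.06), while Snap25 was not called (0.15 each time). Astrocyte markers were also well detected, with sums of 36744 to 48914 in control and 43987 to 54645 in RNAi arrays. RNA was measured in bulk, so fewer cells of a type and less RNA per cell cannot be told apart.

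The promoters are shown because SRF, MEF2 and the TEAD factors of the Hippo pathway each read a short DNA word. RefSeq entries on build GRCr8 matched 3 of the 4 genes, and the 250 bases before each start are given 5′ to 3′ on the gene's strand, with motif matches in capitals. The searched words, on both strands, were the CArG box, the MEF2 motif, the TEAD word GGAATG and the CREB word TGACGT. None of the matches shown overlapped another. The Ccn1 window lies at chr2:237225690-237225939 on the minus strand, the Ccn2 window at chr1:22624615-22624864 on the minus strand and the Srf window at chr9:21923826-21924075 on the plus strand.
Ccn1: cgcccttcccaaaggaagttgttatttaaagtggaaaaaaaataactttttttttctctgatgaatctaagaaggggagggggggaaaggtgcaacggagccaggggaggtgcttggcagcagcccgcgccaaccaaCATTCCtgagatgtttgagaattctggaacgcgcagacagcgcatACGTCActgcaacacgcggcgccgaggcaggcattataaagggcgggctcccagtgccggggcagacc
Ccn2: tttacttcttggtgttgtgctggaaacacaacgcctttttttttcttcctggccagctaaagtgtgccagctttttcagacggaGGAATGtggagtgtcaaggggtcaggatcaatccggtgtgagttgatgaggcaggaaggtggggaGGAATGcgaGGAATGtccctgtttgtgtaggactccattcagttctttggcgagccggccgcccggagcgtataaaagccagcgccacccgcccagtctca
Srf: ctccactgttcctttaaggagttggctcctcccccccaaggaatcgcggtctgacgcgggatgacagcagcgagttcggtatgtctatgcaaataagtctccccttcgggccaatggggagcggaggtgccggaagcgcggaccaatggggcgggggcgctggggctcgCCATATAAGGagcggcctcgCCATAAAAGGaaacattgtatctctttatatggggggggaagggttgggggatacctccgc
The Srf promoter held 2 CArG boxes, CCATATAAGG at 81 to 72 bases and CCATAAAAGG at 61 to 52 bases before the start. A CArG box stood in 1.5% of the 33469 rat promoters of this length. The Ccn2 promoter held 3 copies of GGAATG, at 166 to 161, 101 to 96 and 92 to 87 bases before the start. The Ccn1 promoter held 1 copy, read as CATTCC at 113 to 108 bases, and 1 TGACGT, read as ACGTCA at 68 to 63 bases. GGAATG stood in 12.1% of all promoters and TGACGT in 6.95%. The MEF2 motif, found in 2.96% of all promoters, was in none of the 3 windows. These matches describe letters only, and no binding was measured.

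Ccn1, which supports cell adhesion and migration through integrins, was highest after 1 h of KCl in both arms, and lower at that time in the RNAi arm. In the control arm its signals were 203, 195 and 149 at 0 h, 1538, 2013 and 2244 at 1 h, and 563, 864 and 733 at 6 h. All 1 h arrays were above all 6 h arrays, which were above all 0 h arrays. The control-arm difference from 0 h, which is a description because the gene was chosen with it known, was 10.6-fold at 1 h (log2 3.40, SE 0.22) and 3.92-fold at 6 h (log2 1.97, SE 0.22). In the RNAi arm the signals were 220, 180 and 245 at 0 h, 666, 1091 and 1322 at 1 h, and 456, 487 and 557 at 6 h. The RNAi arrays fell into the same order of times, again with no overlap. Ccn1 rose 4.63-fold at 1 h in the RNAi arm (log2 2.21, SE 0.22, n = 3 a group, limma adjusted p = 1.69e-05). It stayed above its 0 h level at 6 h (2.34-fold, log2 1.22, limma adjusted p = 0.000395), having fallen by 0.98 on the log2 scale from 1 h (limma adjusted p = 0.00313). Over the 6 groups the mean signals were ordered control 1 h at 1932, RNAi 1 h at 1026, control 6 h at 720, RNAi 6 h at 500, RNAi 0 h at 215 and control 0 h at 182. In that order RNAi 1 h overlapped control 6 h, and the 0 h groups overlapped each other.

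The RNAi arm of Ccn1 was set against control at each time, in comparisons that share the control arrays with the responses above. At 0 h the log2 difference was 0.24 (95% confidence interval -0.24 to 0.72, limma adjusted p = 0.536). At 1 h all 3 RNAi arrays lay below all 3 control arrays, and the RNAi signal was 51.7% of control (log2 -0.95, SE 0.22, limma adjusted p = 0.0081). By replicate number the log2 differences at 1 h were -1.21, -0.88 and -0.76. At 6 h the RNAi arrays were again all below the control arrays, at 70.3% of control, but the difference was not called (log2 -0.51, 95% interval -0.99 to -0.03, limma adjusted p = 0.141). The KCl response with RNAi minus that in control was -1.19 at 1 h (log2, SE 0.32). At 6 h it was -0.75 (SE 0.32). Both values hold the control-arm response and are given without a test.

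**Figure D1:**
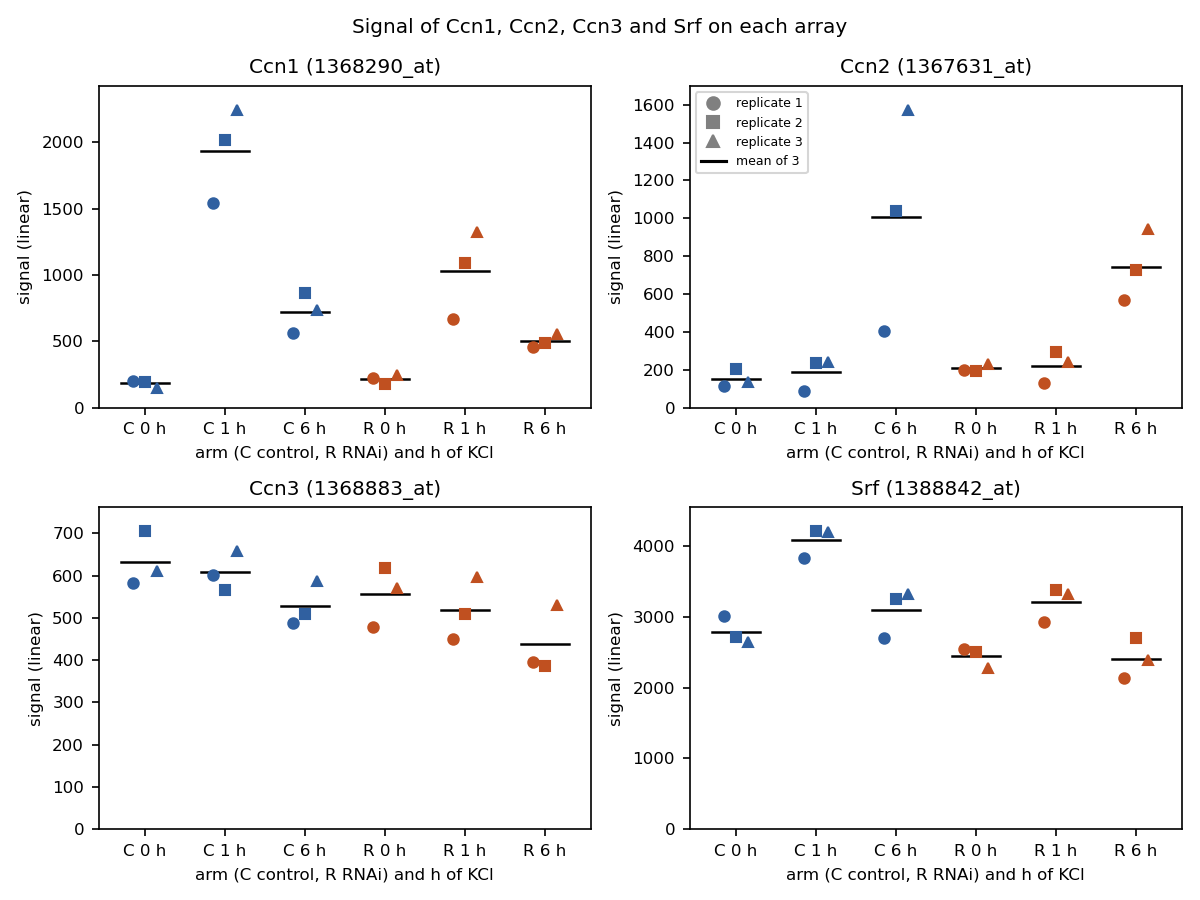
Signal of each gene's probe set of highest mean (linear intensity, y axis from 0) on every array, by hours in KCl and arm. Circles, squares and triangles are replicates 1, 2 and 3, bars are means of 3 arrays, blue is control and orange is RNAi. Ccn1 peaks at 1 h with the RNAi arrays (666 to 1322) below the control arrays (1538 to 2244), Ccn2 is high at 6 h with wide spread, Ccn3 drifts slightly down, and Srf is highest at 1 h.

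The plot of signals by array shows the 4 genes on their own scales. Ccn1 and Srf peak early, Ccn2 is high late, and Ccn3 moves little.

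Ccn2, which promotes matrix production and fibrosis in other tissues, was a late gene here: it was near its 0 h level at 1 h and was high at 6 h. Its control signals were 116, 204 and 133 at 0 h, 89.3, 236 and 238 at 1 h, and 403, 1036 and 1573 at 6 h. The 0 h and 1 h arrays overlapped, and all 6 h arrays were above them, with replicate 1 lowest at every control time. The control-arm difference from 0 h was 0.23 at 1 h (log2, SE 0.46) and 2.57 at 6 h (5.94-fold, SE 0.46), both descriptions. With RNAi the signals were 197, 195 and 230 at 0 h, 129, 291 and 242 at 1 h, and 566, 726 and 943 at 6 h. The RNAi arrays at 6 h were likewise all above those of the earlier times. Ccn2 rose 3.52-fold at 6 h in the RNAi arm (log2 1.82, SE 0.46, limma adjusted p = 0.00446). From 1 h to 6 h it rose by 1.80 (log2, limma adjusted p = 0.0063). The 1 h difference from 0 h was 0.01, with a 95% interval of -0.95 to 0.98 that allows a change of nearly 1 log2 unit either way (limma adjusted p = 0.993). By group mean the order was control 6 h at 1004, RNAi 6 h at 745, RNAi 1 h at 221, RNAi 0 h at 208, control 1 h at 188 and control 0 h at 151. The 6 h groups overlapped each other, as did the 4 others.

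No RNAi difference was called for Ccn2. The log2 differences from control were 0.50 at 0 h (95% interval -0.47 to 1.47), 0.29 at 1 h (-0.68 to 1.25) and -0.25 at 6 h (-1.22 to 0.71), with limma adjusted p of 0.522, 0.741 and 0.781. The arms overlapped at each time. Left-out arrays turned the sign of the 1 h and 6 h differences: they ran from -0.18 to 0.63 at 1 h and from -0.81 to 0.17 at 6 h. The response of Ccn2 with RNAi minus that in control was -0.21 at 1 h and -0.75 at 6 h (log2, SE 0.64), values that hold the control-arm response and were not tested. By replicate number the 6 h responses were 1.80, 2.34 and 3.56 in control and 1.52, 1.90 and 2.04 with RNAi, smaller with RNAi for each number. Replicates of Ccn2 varied by a log2 SD of 0.63, at the 99.7th percentile of the genes tested, against a median of 0.11. The corresponding SD was 0.31 for Ccn1, 0.18 for Ccn3 and 0.12 for Srf.

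Ccn3, a CCN protein linked to growth restraint, had no comparable KCl response. Its control signals were 583, 705 and 612 at 0 h, 602, 565 and 658 at 1 h, and 487, 508 and 586 at 6 h. Control arrays overlapped between 0 h and 1 h, and between 0 h and 6 h by the narrow margin of 586 against 583. The control-arm log2 difference was -0.06 at 1 h and -0.26 at 6 h (SE 0.14). The RNAi signals were 477, 618 and 572 at 0 h, 450, 509 and 596 at 1 h, and 395, 387 and 531 at 6 h. These arrays overlapped at all times. At 6 h Ccn3 was called lower than at 0 h in the RNAi arm (1.28-fold, log2 -0.35, SE 0.14, limma adjusted p = 0.0492), at the edge of the threshold. That call was lost without RNAi 0 h replicate 2 (adjusted p = 0.183) or 3 (0.122), and without RNAi 6 h replicate 1 (0.158) or 2 (0.18), by limma. At 1 h the difference was -0.10 (95% interval -0.39 to 0.19, limma adjusted p = 0.776), and from 1 h to 6 h it was -0.25 (limma adjusted p = 0.184; 0.0358 without RNAi 6 h replicate 3).

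Against control, Ccn3 was lower in the RNAi array of every replicate number at 0, 1 and 6 h, although the arms overlapped at each time. The log2 differences were -0.19 (95% interval -0.48 to 0.10), -0.24 (-0.53 to 0.05) and -0.28 (-0.57 to 0.01), with limma adjusted p of 0.391, 0.268 and 0.184. With the replicate number as a block, the 6 h difference of -0.28 passed the threshold (limma adjusted p = 0.0479). It also passed without RNAi 6 h replicate 3 (log2 -0.43, limma adjusted p = 0.0449). By group mean Ccn3 was ordered control 0 h at 633, control 1 h at 608, RNAi 0 h at 556, control 6 h at 527, RNAi 1 h at 518 and RNAi 6 h at 437, and all neighbours overlapped. The response with RNAi minus that in control was -0.045 at 1 h and -0.088 at 6 h (log2, SE 0.19), without a test.

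Srf, read by the probe set 1388842_at, rose early and modestly and was lower in the RNAi arm. Its control signals were 3011, 2717 and 2642 at 0 h, 3838, 4210 and 4204 at 1 h, and 2703, 3260 and 3319 at 6 h. The 1 h arrays were all above the others, and the 6 h arrays overlapped the 0 h arrays. The control-arm log2 difference from 0 h was 0.55 at 1 h and 0.15 at 6 h (SE 0.10), as a description. With RNAi they were 2545, 2505 and 2284 at 0 h, 2931, 3376 and 3321 at 1 h, and 2134, 2696 and 2391 at 6 h. The RNAi arrays followed the same pattern, with 1 h above the other times and 6 h overlapping 0 h. Srf rose 1.31-fold at 1 h in the RNAi arm (log2 0.39, SE 0.10, limma adjusted p = 0.0323) and fell by 0.42 from 1 h to 6 h (log2, limma adjusted p = 0.00345). The 6 h difference from 0 h was -0.03 (95% interval -0.23 to 0.18, limma adjusted p = 0.851). The 1 h call is near the threshold: limma's adjusted p was 0.0517, 0.0758 and 0.144 without RNAi 0 h replicates 1, 2 and 3, and 0.143 and 0.137 without RNAi 1 h replicates 2 and 3. It was also lost when genes were not filtered on signal, at an adjusted p of 0.0512, and when only the compared groups were fitted, at 0.0549.

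At each time all 3 RNAi arrays of Srf were below all 3 control arrays. The log2 difference was -0.19 at 0 h (95% interval -0.40 to 0.02, limma adjusted p = 0.22), -0.35 at 1 h (78.5% of control, SE 0.10, limma adjusted p = 0.0206) and -0.36 at 6 h (77.8% of control, limma adjusted p = 0.0171). The 1 h call was lost by limma without RNAi 1 h replicate 1 (adjusted p = 0.0992) or control 1 h replicate 2 (0.068) or 3 (0.0598). The 6 h call was lost without RNAi 6 h replicate 1 (0.0934) or control 6 h replicate 2 (0.0738) or 3 (0.0763), and at 0.0876 when only the compared groups were fitted. The difference was negative each time. The response with RNAi minus that in control was -0.16 at 1 h and -0.17 at 6 h (log2, SE 0.14), without a test. By group mean the order was control 1 h at 4084, RNAi 1 h at 3209, control 6 h at 3094, control 0 h at 2790, RNAi 0 h at 2445 and RNAi 6 h at 2407. In that order control 1 h stood clear of RNAi 1 h and control 0 h stood clear of RNAi 0 h, and the other neighbours overlapped.

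The other Srf probe sets followed a different time course. Probe set 1374829_at had control signals of 334, 306 and 301 at 0 h, 394, 413 and 429 at 1 h, and 548, 508 and 516 at 6 h. Its arrays stood higher at each later time with no overlap, where 1388842_at had come back down by 6 h. The control-arm log2 difference from 0 h was 0.40 at 1 h and 0.74 at 6 h (SE 0.06), as a description. Its RNAi signals were 321, 310 and 318 at 0 h, 335, 364 and 350 at 1 h, and 398, 399 and 383 at 6 h. These arrays were also higher at each later time without overlap, by smaller steps. In the fit over all 19567 probe sets, the RNAi arm rose by 0.31 at 6 h (log2, SE 0.06, limma adjusted p = 0.000493), a direction called for 14.7% of probe sets. At 1 h it differed by 0.14 (95% interval 0.02 to 0.27, limma adjusted p = 0.25).

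Between 1 h and 6 h of the RNAi arm the Srf probe sets were called in opposite directions, 1374829_at higher (log2 0.17, limma adjusted p = 0.0387) and 1388842_at lower. Higher calls were made for 12.5% and lower calls for 14.7% of all probe sets in that comparison. The call for 1374829_at was lost by limma without RNAi 1 h replicate 1 (adjusted p = 0.147) or 3 (0.0872), and without RNAi 6 h replicate 1 (0.0965), 2 (0.107) or 3 (0.056). It was also lost at 0.0804 when only the compared groups were fitted. An average over all 3 Srf probe sets was also fitted, with the dim and untested 1395378_at weighted like the others. Averaging took the RNAi arm's difference between 1 h and 6 h to -0.076 (log2, limma adjusted p = 0.43) and the 1 h rise to 0.22 (adjusted p = 0.0879). It made the control-arm 6 h difference from 0 h 0.52 and from 1 h 0.076. The late level of Srf therefore depends on which probe set is read. The third, 1395378_at, exceeded the 40th percentile on none of the arrays and was not tested. Its control signals were 82.5, 69.3 and 77.5 at 0 h, 96.6, 92.7 and 113 at 1 h, and 135, 125 and 109 at 6 h. Its RNAi signals were 82.1, 83.9 and 85.3, then 79.7, 94.9 and 98.2, then 87.9, 97.3 and 90.6. The 6 h control arrays were its 3 highest but for 1 control array at 1 h. Over the 18 arrays 1374829_at and 1395378_at correlated at 0.91, and 1388842_at correlated with them at 0.36 and 0.38. The positions of these probes in the transcript are not given in the sources used here.

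Both tested Srf probe sets were lower with RNAi after KCl. For 1374829_at the log2 difference from control was 0.02 at 0 h (95% interval -0.11 to 0.14, limma adjusted p = 0.907), -0.24 at 1 h (limma adjusted p = 0.0109) and -0.41 at 6 h (limma adjusted p = 0.00023), with no overlap between arms at 1 h or 6 h. Lower calls covered 8.73% of probe sets at 1 h and 8.02% at 6 h. The 1 h call was lost without RNAi 1 h replicate 1 (limma adjusted p = 0.057) and when only the compared groups were fitted (0.0757). Its response with RNAi minus that in control was -0.25 at 1 h and -0.43 at 6 h (log2, SE 0.08), as values without a test. The dim 1395378_at differed by 0.11, -0.15 and -0.41 at 0, 1 and 6 h.

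**Figure D2:**
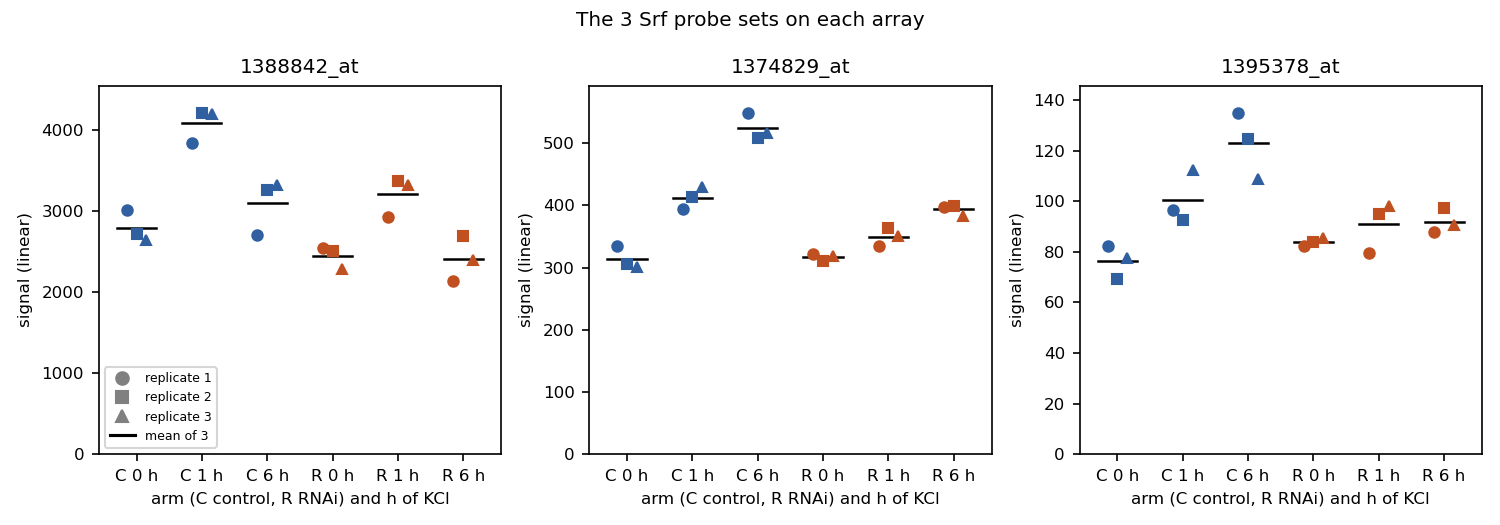
Signal of the 3 Srf probe sets (linear intensity, y axis from 0) on every array, by hours in KCl and arm, with bars at the mean of 3 arrays and replicates 1, 2 and 3 as circles, squares and triangles. Probe set 1388842_at is highest at 1 h, whereas 1374829_at and the dim 1395378_at are highest at 6 h in the control arm, and RNAi arrays of the first and second are below control arrays at 1 h and 6 h.

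The plot of Srf probe sets places the early peak of 1388842_at beside the later maximum of the others. The lower RNAi signal at 6 h is visible in all 3 panels.

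Read against all 10934 genes, the RNAi-arm KCl calls were as follows. At 1 h, 2 of the 4 genes were called higher (Ccn1 and Srf), where 1.23% of all genes were. At 6 h, 2 were called higher (Ccn1 and Ccn2) beside 14.7% of all genes, and Ccn3 was called lower beside 25.3%. From 1 h to 6 h, Ccn2 was called higher beside 13.9% and Ccn1 and Srf lower beside 17.4%. The other tested Srf probe set, 1374829_at, was not called at 1 h. It was called higher from 0 h to 6 h and from 1 h to 6 h. In the control arm, the arrays of Ccn1 and Srf at 1 h lay above those at 0 h without overlap, as for 4.87% of genes, and at 6 h those of Ccn1 and Ccn2 did, as for 19.6%. Those counts rest on values used in choosing the genes. With the replicate number as a block, the genes called at 1 h in the RNAi arm numbered 904 in place of 424.

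Set against control, 0 of the 4 genes were called by limma at 0 h, where 14.9% of all genes were, and none of the 4 had an unadjusted p under 0.05. At 1 h and at 6 h the background of lower calls was 9.12% and 8.55%. Ccn1 and Srf were called lower at 1 h and Srf at 6 h. Groups not overlapping with RNAi lower were found for 1 of the 4 at 0 h (12.4% of all genes), 2 at 1 h (16.4%) and 2 at 6 h (15.5%). With the replicate block, all genes called numbered 2847 in place of 1624 at 0 h, 3073 in place of 1869 at 1 h and 3084 in place of 1883 at 6 h. The difference between the arms' responses was called by limma for 0% of all genes at 1 h, with 363 genes at an unadjusted p under 0.05, and for 0.119% (13 genes, 126 with the block) at 6 h.

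**Figure D3:**
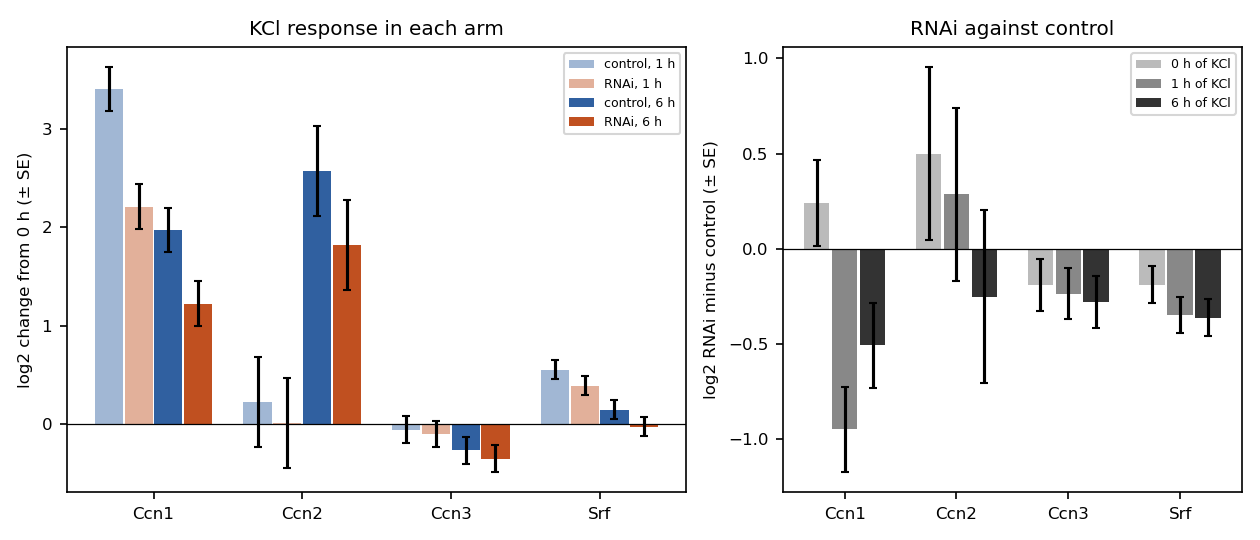
Log2 differences of Ccn1, Ccn2, Ccn3 and Srf (bars, with limma standard errors as whiskers), for the KCl responses of each arm on the left (pale 1 h, full colour 6 h) and for RNAi against control at 0, 1 and 6 h on the right. Ccn1 has the largest 1 h response in both arms (3.40 in control, 2.21 with RNAi), Ccn2 the largest at 6 h (2.57 and 1.82), and RNAi differences are negative for Srf and Ccn3 at all times.

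In the plot of log2 differences the RNAi-arm bars of Ccn1 at 1 h and at 6 h, and of Ccn2 at 6 h, are shorter than the control-arm bars. Control-arm responses are drawn as descriptions, and the gap between the arms was given no test.

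Immediate early targets of SRF, such as Fos, Egr1 and Junb, are transcription factors and regulators induced within minutes of a stimulus. This list and the other gene lists below were drawn up with earlier results of these data known, so their counts and p-values are descriptions. Of 14 listed, 13 were tested, and 11 rose at 1 h in the control arm and 11 in the RNAi arm. The list's median log2 differences were 2.94 and 2.62. The medians over all genes were -0.02 and -0.04, and higher calls covered 1.19% of genes in the control arm and 1.23% in the RNAi arm. Junb, a component of the AP-1 factor, rose by 3.97 in control and 4.28 with RNAi (log2, limma adjusted p = 1.89e-12 and 5.99e-13), and Fosb, another, by 5.06 and 5.84. Arc, a synaptic scaffold protein, rose by 3.02 and 2.62, and Egr4, a zinc finger factor, by 4.33 and 3.54. At 6 h 11 were still higher in control (median 1.38) and 10 with RNAi (median 1.14). Of all genes, 16.1% were called higher in control and 14.7% in the RNAi arm. With RNAi, 2 of the 13 were lower at 0 h (Arc by 0.54, Fosb by 0.73), 6 at 1 h and 5 at 6 h. The count at 6 h was 8 with the replicate block, and 3 without RNAi 6 h replicate 1 or control 6 h replicate 3. At 0 h it was 1 without RNAi 0 h replicate 2 or 3 or control 0 h replicate 1 or 2. Lower calls covered 6.19% of genes at 0 h, 9.12% at 1 h and 8.55% at 6 h. At 1 h the medians were -0.31 for the list and 0.01 for all genes, and at 6 h -0.42 and 0.02. With RNAi, Arc was 0.94 and Egr2 1.23 below control at 1 h, and Egr4 was 1.14 below control at 6 h (log2, limma adjusted p = 8.18e-05, 0.00258 and 0.000334).

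The actin-cytoskeletal targets of SRF, which encode actins and actin-binding proteins, did not share that pattern. Of 16 tested, 0 were called by limma at 1 h in either arm, with 1 in control and 3 with RNAi at an unadjusted p under 0.05. At 6 h 2 rose and 2 fell in each arm. Actn1, an actin cross-linker, rose by 0.76 in control and 0.90 with RNAi, and Tagln2 by 0.40 and 0.53. Myl9, a myosin light chain, fell by 0.91 and by 1.16, and Fhl2, a cofactor of SRF and other factors, fell by 0.86 and by 1.36. Of all genes at 6 h, 16.1% were called higher and 25.5% lower in control, and 14.7% higher and 25.3% lower with RNAi. Without control 6 h replicate 2, 1 of the 16 was called higher at 6 h in control. With RNAi, 1 of the 16 was called higher and 1 lower at each time, and with the replicate block 4 were higher at 0 h and at 1 h. The lower one was Fhl2 each time (log2 -0.49 at 0 h and -0.72 at 1 h, and limma adjusted p = 4.29e-05 at 6 h). Against control at 0, 1 and 6 h, 8.66%, 7.98% and 8.67% of all genes were called higher. Lower calls covered 6.19%, 9.12% and 8.55%.

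Of 6 listed SRF cofactors, 4 were tested. At 1 h limma called 0 of them in control, with 1 at an unadjusted p under 0.05. At 6 h in control Elk3, Elk4 and Mrtfa rose by 0.95, 0.65 and 0.28 and Elk1 fell by 0.65, all on the log2 scale. Of all genes, 16.1% were called higher and 25.5% lower in that comparison. In the RNAi arm at 6 h Elk4 rose by 0.39 and Elk1 fell by 0.39, and Elk1 was higher than control by 0.29 (limma adjusted p = 0.0229). Over all genes, 14.7% rose and 25.3% fell at 6 h in the RNAi arm, and 8.67% were called higher than control.

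**Figure D4:**
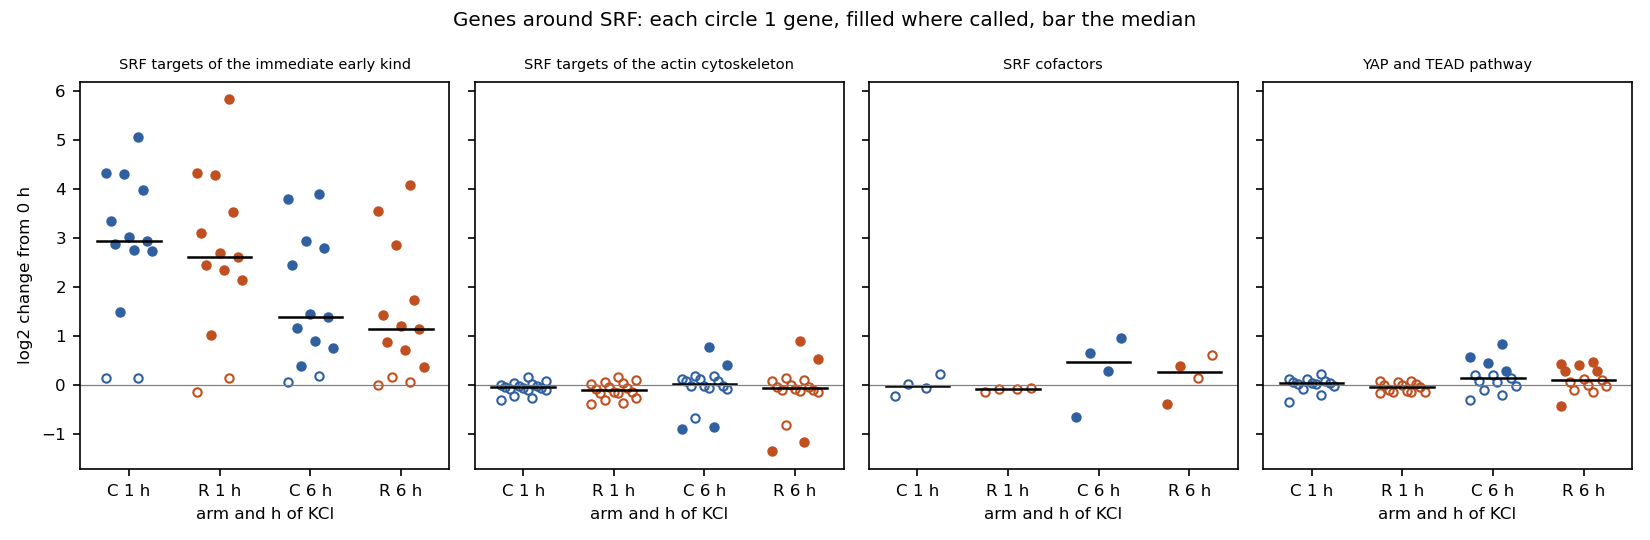
Log2 differences from 0 h (y axis) for immediate early SRF targets, actin-cytoskeletal SRF targets, SRF cofactors and the YAP and TEAD pathway, by arm and hours of KCl. Each circle is a gene, filled where called, and bars are medians. The immediate early targets lie high at 1 h, with medians of 2.94 in control and 2.62 with RNAi, whereas the actin targets sit near 0.

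The plot of SRF pathway genes shows the listed genes only, and Srf itself is not drawn. At 1 h 11 of the 13 early targets were called higher in each arm, from 1.02 for Dusp5 to 5.84 for Fosb with RNAi. Mcl1 and Klf6 were not called, at 0.15 and 0.15 in control and -0.14 and 0.15 with RNAi.

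The other CCN genes were steady. Ccn4 had group means of 218 to 244 and Ccn5 of 303 to 315, and limma called neither in any comparison, with 0 of the 2 at an unadjusted p under 0.05. Ccn6 had group means of 105 to 116, under the signal filter, and was not tested. Integrins, syndecan and LDL-receptor-related proteins bind CCN proteins. Of 11 such receptors and partners tested, 3 rose at 6 h in control, namely Itga6, an integrin subunit, by 1.06, Lrp1 by 0.28 and Itgb1 by 0.26, and 1 rose in the RNAi arm (Itga6 by 0.68). Of all genes, 16.1% rose at 6 h in control and 14.7% in the RNAi arm. With RNAi, Itga6 was lower by -0.51 at 1 h and -0.59 at 6 h, and Sdc4, a heparan sulphate proteoglycan, was higher by 0.54 at 1 h. Higher calls covered 7.98% of genes at 1 h, and lower calls 9.12% at 1 h and 8.55% at 6 h. Of 6 other matricellular genes tested, limma called 0 with KCl, and 0 had an unadjusted p under 0.05. Postn, a matrix protein of connective tissue, was lower with RNAi at 0, 1 and 6 h (log2 -0.85, -0.62 and -0.81). Over all genes, 6.19%, 9.12% and 8.55% were called lower at these times. Tnc, another matrix glycoprotein, was higher with RNAi at 6 h (log2 0.42), beside 8.67% of genes called higher.

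YAP and TAZ act with TEAD factors and are known to induce Ccn1 and Ccn2. Of 13 genes of that pathway tested, 4 rose at 6 h in control: Lats2, an inhibitory kinase, by 0.83, Ajuba by 0.58, Tead1 by 0.45 and Wwtr1 (TAZ) by 0.28. In the RNAi arm 5 rose, among them Wwtr1 by 0.40 and Lats2 by 0.47, and Lats1 fell by 0.44. Over all genes, 16.1% rose at 6 h in control, and 14.7% rose and 25.3% fell in the RNAi arm. Lats2, Amotl2 and Ajuba were higher with RNAi at 0 h (by 0.70, 0.59 and 0.36), where 8.66% of genes were called higher. At 1 h Ajuba, Lats2 and Stk4 were higher (by 0.56, 0.49 and 0.30) beside 7.98% of genes, and Lats1 was lower (log2 -0.29) beside 9.12%. At 6 h Lats2 was higher by 0.34, beside 8.67%. TGF-beta is a known inducer of Ccn2. Of 8 ligands, receptors and Smads tested, 4 rose at 6 h in control (Tgfb3 by 0.54, Smad7, an inhibitory Smad, by 0.48, Smad2 by 0.43 and Smad4 by 0.35). With RNAi 3 rose and 2 fell, with Tgfb3 higher by 0.90 and Smad7 lower (log2 -0.26). The shares of all genes called at 6 h were 16.1% higher in control, and 14.7% higher and 25.3% lower with RNAi. Tgfb2 was higher than control with RNAi at 0, 1 and 6 h (0.57, 0.67 and 0.77), and Smad7 was lower at 6 h (-0.72). Against control, 8.66%, 7.98% and 8.67% of all genes were called higher at those times, and 8.55% lower at 6 h. The mean signals of Smad7 given further below lay near the cut of the signal filter except in control at 6 h.

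The genes whose signals followed each member most closely were found by Pearson correlation of log2 signal over the 18 arrays among 10834 genes, leaving out symbols that begin with LOC or RGD. Arrays share a KCl time and a replicate number, so these values are descriptions. Ccn1 was followed by Egr4 (0.97), Nr4a1 (0.96), Klf4 (0.96) and Ier2 (0.95). Each of these was highest at 1 h in both arms: Egr4 had mean signals of 181, 3565 and 1227 in control and 210, 2400 and 558 with RNAi at 0, 1 and 6 h. Ccn2 was followed by Lrfn4 (0.99), Rragd (0.96), Mvb12a (0.96) and Gls2 (0.96). They were flat at 1 h and higher at 6 h, such as Rragd at 399, 388 and 746 in control. Ccn3 was followed by Mal2 (0.93), Ephx4 (0.91), Baalc (0.90) and Mrps15 (0.90), each lower at 6 h in both arms. Srf, read by 1388842_at, was followed by Arc (0.88), Nr4a3 (0.83), Rnd1 (0.82) and Egr2 (0.82). Between members, Ccn1 and Srf correlated at 0.78, Ccn1 and Ccn2 at 0.17 and Ccn2 and Srf at -0.16. These Srf values hold for 1388842_at alone, which correlated with the other Srf probe sets at 0.36 and 0.38.

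The range of group means over the 6 groups, in log2, was 3.40 for Ccn1, 2.57 for Ccn2, 0.77 for Srf and 0.54 for Ccn3. For Ccn1 and Ccn2 this range is the control-arm response itself, which was known when the genes were chosen.

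Fibroblast and endothelial cells also express Ccn1 and Ccn2, so their markers are given beside these genes. Of 9 fibroblast markers 6 to 7 were above the 40th percentile on all arrays of a group. Their summed signal was 12892 to 16974 over control arrays at 0 h and 1 h and 18152 to 19062 at 6 h. In RNAi arrays it was 14219 to 16551 and then 18377 to 20342. All 9 were tested, and 2 rose at 6 h in each arm: Fn1 by 0.63 and Vim by 0.27 in control, and Fn1 by 0.62 and Dcn by 0.58 with RNAi (log2). The other 7 were not called, with Lum at -0.57 in control and 0.57 with RNAi, and list medians of 0.04 and 0.14. Higher calls at 6 h covered 16.1% of all genes in control and 14.7% in the RNAi arm. Against control, Dcn and Lum were called lower with RNAi at 0 h (-1.06 and -1.16) and 1 h (-1.04 and -1.34) and Dcn at 6 h (-0.49). Of all genes, 6.19%, 9.12% and 8.55% were called lower at 0, 1 and 6 h. Fn1 was not called, at 0.44, 0.37 and 0.43. Of 7 endothelial markers on the array 2 were tested. Cldn5 rose at 6 h by 1.23 in control and 0.46 with RNAi and was lower with RNAi at 6 h (log2 -0.97). Kdr rose by 0.31 in control and was not called with RNAi (0.15) or against control at 6 h (-0.18). In control at 6 h 2 endothelial markers were above the 40th percentile on all arrays of the group, and in each other group 0 were. These differences may therefore follow from the signal filter and are descriptions. Pecam1, with group means of 46.1 to 47.7, lay under the signal floor. The summed signal of the 7 endothelial markers was 617 to 687 in control arrays before 6 h and 809 to 933 at 6 h. In RNAi arrays it was 598 to 666 and then 701 to 712. Microglial markers summed to 1584 to 1897, with 3 to 5 of 9 above the percentile. Their part in the levels of Ccn1, Ccn2, Ccn3 and Srf was not tested.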

How the data were processed

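The deposited table held 1 linear intensity per probe set and array, as the authors had normalized it. How the authors combined probes and scaled arrays was not given in the sources used here, and no depth applies to arrays. All 18 arrays entered. Intensities under the table's 20th percentile (72.6) were raised to it, which understates changes of dim genes, and log2 was taken. Each gene was read by its probe set of highest mean among those with 1 annotated symbol (20832 of 31099 probe sets; annotation matched to RefSeq for 20764). Genes above their array's 40th percentile on at least 3 arrays were tested, 10934 in all, and 5 of the 6 probe sets described passed. Comparisons used limma 3.58.1 (R 4.3.3), with 1 mean per group, 12 residual degrees of freedom, two-sided p-values and Benjamini-Hochberg adjustment over all genes. Genes were called at an adjusted p under 0.05. The fit was run on simulated data with independent noise on every array and no deviation shared between same-numbered samples. That run therefore cannot show how such sharing affects the calls.

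Control-arm KCl responses of the 4 genes, and the difference between the arms' responses, are given without a test. The genes and the lists were chosen with earlier results of these data known. Named genes are all members, Mef2a and Mef2d, up to 4 called genes of smallest adjusted p per list and comparison (for some comparisons fewer are given), and the 4 genes of highest correlation with each member. The labels call the replicates biological without naming separate cultures or animals, so p-values measure only the spread between these samples. Same-numbered samples of groups compared with each other deviated together, with correlations of 0.174 to 0.741 over the genes tested. The replicate number was therefore tried as a block. Pairs of groups not compared were left out of that check. Lists and markers were counted, not tested as sets. Alternatives changed the floor, pseudocount, scaling, filter, probe set rule, groups fitted and block, and left out each array in turn.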

Additional observations from a re-analysis of the deposited data

Results flagged for a closer look

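Among the genes of the lists, 2 had a 6 h KCl response that differed between the arms by the test of that difference. The lists were drawn up with earlier results of these data known, and this difference holds the control-arm response. The p-values given for it here are therefore descriptions. Egr4, a zinc finger factor, had mean signals of 181 at 0 h and 1227 at 6 h in control, and 210 and 558 with RNAi, a difference of responses of -1.36 (log2, SE 0.24, limma adjusted p = 0.0361). Smad7, an inhibitory Smad, had mean signals of 157 and 219 in control and 159 and 132 with RNAi, a difference of -0.74 (log2, SE 0.12, limma adjusted p = 0.0325). Smad7 rose in the control arm and fell in the RNAi arm. Of its means given here, only the 219 of control 6 h lay above the arrays' 40th percentile of 154 to 164. Smad7 may thus have been tested largely through the group where it was high, and with the filter at the array median it was not tested. Egr4 and Smad7 both kept their call with the replicate number as a block, at limma adjusted p of 0.00957 and 0.00614. Both lost it when probe sets were averaged (-0.60 for Egr4 and -0.25 for Smad7, adjusted p = 0.19 and 0.137) or when only the compared groups were fitted (adjusted p = 0.193 for each), and Egr4 lost it without the signal filter (0.0767). Of the 12 arrays of the comparison left out in turn, 10 ended the call for Egr4, all but RNAi 0 h replicate 2 and control 0 h replicate 1, with values from -1.57 to -1.23 and limma adjusted p of up to 0.11. For Smad7, 9 of 12 ended it, all but RNAi 0 h replicate 1, RNAi 6 h replicate 2 and control 0 h replicate 2, with values from -0.83 to -0.65 and adjusted p of up to 0.099.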

How the results depend on the processing

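With the replicate number as a block, the 6 h RNAi difference of Ccn3 (-0.28) was called by limma, at an adjusted p of 0.0479, and the block changed no other call of the 4 genes and ended none of the 225 calls of list genes. The RNAi-arm 6 h fall of Ccn3 was not called after quantile scaling (-0.27), median centring (-0.34), no signal filter (-0.35), averaging of probe sets (-0.35) or a fit of the compared groups alone (-0.35). The RNAi-arm 1 h rise of Srf was not called without the filter (0.39), with probe sets averaged (0.22) or with the compared groups alone (0.39). Averaging also took the RNAi-arm Srf difference of 6 h from 1 h to -0.076, the control-arm 6 h differences to 0.52 from 0 h and 0.076 from 1 h, and the difference of 6 h responses to -0.38. With the compared groups alone, the calls were lost for the 6 h RNAi difference of Srf (-0.36) and, for 1374829_at, for 6 h from 1 h (0.17) and the 1 h RNAi difference (-0.24).

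Leaving out each array gave ranges of 0.34 to 0.46 for the RNAi-arm 1 h rise of Srf, -0.39 to -0.29 for its 1 h RNAi difference and -0.46 to -0.28 at 6 h. For Ccn3 they were -0.50 to -0.27 (6 h from 0 h), -0.40 to -0.15 (6 h from 1 h) and -0.43 to -0.20 (6 h RNAi difference). For 1374829_at they were 0.14 to 0.20 (6 h from 1 h) and -0.27 to -0.21 (1 h RNAi difference). The sign of Ccn2 turned for its uncalled 1 h values (-0.23 to 0.36 in the RNAi arm, -0.012 to 0.70 in control) and its RNAi differences at 1 h (-0.18 to 0.63) and 6 h (-0.81 to 0.17). Its 6 h rise in the RNAi arm was at least 1.63 and kept its call, at a limma adjusted p of up to 0.0224. The 1 h RNAi difference of Ccn1 kept its call throughout, from -1.16 to -0.67.

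Genes called changed from 295 to 601 (control, 1 h), 424 to 904 (RNAi arm, 1 h), 1624 to 2847, 1869 to 3073 and 1883 to 3084 (RNAi against control at 0, 1 and 6 h) and 13 to 126 (difference of responses, 6 h) with the block. With the compared groups alone they were 125, 262 and 979 for the first 3 of these and 2 for the last. Leaving out arrays gave lows of 188, 220, 1207 for 6 h RNAi against control (without RNAi 6 h replicate 1) and 1 for the last. Of the 225 calls of list genes, 32 were lost with the compared groups alone, 20 without the filter, 14 with probe sets averaged, 8 with quantile scaling and 4 with median centring. Leaving out 1 array ended 6 to 22 of the 62 to 98 calls it took part in, and no such call turned its direction. The 3 arrays a group limit the precision of each interval.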
